A study of Mus musculus with 6 samples.

Results

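The T cell receptor complex genes examined here are 9 genes fixed by name, namely the CD3 chain genes Cd3d, Cd3e and Cd3g, the coreceptor genes Cd4, Cd8a and Cd8b1, the proximal kinase genes Lck and Zap70, and the costimulatory receptor gene Cd28. They were taken by symbol from the 24063 gene symbols of the count files, where 9 of 9 were found. RNA was sequenced from CD31+ cells that had been pulled from lungs of male C57BL6 mice with magnetic beads, 7 days after sham surgery (Sham, 3 libraries) or left unilateral pneumonectomy (PNX, 3 libraries), an operation that takes out 1 lung and is followed by growth of what is left. The labels give no mutation, drug or special diet for these mice, and state an age of 8 weeks, whereas the methods state an older age. The methods give 2 mice per library, so that no library stands for a single animal.

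The T cell receptor binds a peptide held by an MHC molecule, and the CD3 chains that sit beside it carry the signal into the cell. CD4 or CD8 binds the same MHC molecule and brings the Src family kinase LCK to the complex, LCK phosphorylates the CD3 and CD247 tails, and ZAP70 docks there and passes the signal on. CD28 gives the second, costimulatory signal when it binds CD80 or CD86 on an antigen-presenting cell. Healthy lung holds T cells in its vessels and its tissue. CD31 is carried by ECs and also by platelets and some leukocytes. Defining EC markers were present in every library, with a summed level of 10 endothelial genes between 8420 and 11279 CPM (counts relative to TMM-scaled library sizes). The sum of 8 pan-leukocyte genes was between 1639 and 3671 CPM. These sums are not scaled for transcript length and are not compared with each other. The libraries labelled as endothelial cells thus also held leukocyte transcripts. Bulk RNA does not show which cells a transcript came from. Fewer T cells, less of a transcript per T cell and changes in other cells thus cannot be told apart.

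In the labels, replicates 1 and 2 of Sham and PNX are marked as taken over from a previous record (the earlier deposit here) and replicate 3 is not (the later deposit). Replicates 1 and 2 differed by little more than sampling noise, with a chi-square per degree of freedom of 1.75 in Sham and 1.57 in PNX, against 67.9 to 86.4 for pairs that include replicate 3. They were therefore summed and counted as 1 sample, which leaves n = 2 samples per group, whereas the methods count every library and state n = 3. With n = 2 the smallest p that a two-sided exact permutation test can give is 0.333. Total counts were between 29526989 and 81282871 per library. Whether any samples came from separate cohorts of mice is not stated, so p-values measure only the spread between these samples, which may be technical.

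The CD3 chain genes and Lck are shown by sequence first, because the CD3 genes are neighbours and because Lck has separate start sites. Zap70 also has separate start sites, and its windows are described but not shown. Cd3g (chr9:44969572-44980431, minus strand) and Cd3d (chr9:44981786-44987339, plus strand) are transcribed away from each other from starts that are 1355 bases apart, and the Cd3e start lies 27825 bases beyond that of Cd3d. The following windows hold the 250 bases before the annotated start, 5′ to 3′ on the strand of the gene, as RefSeq gives them for GRCm38.p6. Capitals mark matches on either strand to short words known from T cell transcription factor families, which do not overlap in these windows: the E boxes CAGCTG and CACCTG (or CAGGTG), the RUNX word TGTGGT (or ACCACA), the TCF/LEF word CTTTGA (or TCAAAG), the ETS word AGGAAG (or CTTCCT) and the GATA word AGATAA (or TTATCT).
Cd3g, chr9:44980432-44980681, minus strand: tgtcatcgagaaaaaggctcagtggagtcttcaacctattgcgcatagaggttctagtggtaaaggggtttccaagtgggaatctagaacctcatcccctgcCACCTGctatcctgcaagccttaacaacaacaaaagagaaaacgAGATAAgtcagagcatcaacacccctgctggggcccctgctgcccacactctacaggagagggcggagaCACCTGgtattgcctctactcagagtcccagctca
Cd3d, chr9:44981536-44981785, plus strand: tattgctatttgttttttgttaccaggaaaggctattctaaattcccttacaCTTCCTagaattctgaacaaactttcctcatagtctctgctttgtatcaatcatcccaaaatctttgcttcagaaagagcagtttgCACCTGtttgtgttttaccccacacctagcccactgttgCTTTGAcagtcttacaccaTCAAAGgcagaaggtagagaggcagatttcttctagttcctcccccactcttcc
Cd3e, chr9:45009612-45009861, minus strand: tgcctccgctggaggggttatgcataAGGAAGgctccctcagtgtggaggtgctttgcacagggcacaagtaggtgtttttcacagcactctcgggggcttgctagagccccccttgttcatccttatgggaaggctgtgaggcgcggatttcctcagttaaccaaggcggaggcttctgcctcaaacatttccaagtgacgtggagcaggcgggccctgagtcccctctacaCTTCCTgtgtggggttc
Lck, distal start, chr4:129573642-129573891, minus strand: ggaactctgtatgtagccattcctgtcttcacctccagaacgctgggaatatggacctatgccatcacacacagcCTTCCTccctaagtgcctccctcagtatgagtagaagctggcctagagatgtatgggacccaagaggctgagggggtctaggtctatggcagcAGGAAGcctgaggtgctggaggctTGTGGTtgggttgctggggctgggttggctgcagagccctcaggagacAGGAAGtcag
Lck, proximal start, chr4:129558373-129558622, minus strand: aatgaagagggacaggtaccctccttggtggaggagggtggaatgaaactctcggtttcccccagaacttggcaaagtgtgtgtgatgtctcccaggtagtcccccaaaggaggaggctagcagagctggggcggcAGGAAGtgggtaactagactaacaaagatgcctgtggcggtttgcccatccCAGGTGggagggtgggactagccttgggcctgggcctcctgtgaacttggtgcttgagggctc

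The Cd3g window held 2 E boxes and 1 GATA word, that of Cd3d 1 E box, 2 TCF/LEF words and 1 ETS word, and that of Cd3e 2 ETS words. The distal Lck window had 1 RUNX and 3 ETS words and the proximal one 1 E box and 1 ETS word. Of the Zap70 windows, the one before the start at chr1:36761798 held 2 E boxes, 1 TCF/LEF word and 1 ETS word. The window before 36764515 held 1 RUNX and 2 ETS words, and the one before 36778984 held 1 E box. None of the 5 words occurred in the Cd8a window. Such words are common. Among 32851 windows of the same length before annotated mouse starts, an E box of these kinds occurred in 27.7%, the RUNX word in 14.0%, the TCF/LEF word in 13.8%, the ETS word in 29.5% and the GATA word in 9.99%. A match is a description of the letters and not a binding site. Promoter windows were matched for 6 of the 9 genes, the others being Cd4, Cd8b1 and Cd28.

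All 9 genes were detected in every library, at 92 to 784 counts of the most counted transcript. Levels of different genes are compared only per length, as TPM (transcript counts per length, scaled to a common sum) of that transcript. In Sham the median TPM was highest for Cd3g at 12.5, followed by Lck at 11.3, Cd3d at 7.22, Cd8b1 at 6.77, Cd3e at 4.90, Zap70 at 4.86, Cd28 at 4.13, Cd4 at 4.09 and Cd8a at 3.20. Between neighbours in this order the ranges over the 3 Sham libraries overlapped in every case. After PNX the order of median TPM was Lck (7.02), Cd3g (6.90), Zap70 (4.27), Cd3d (3.80), Cd8b1 (3.60), Cd3e (3.57), Cd4 (2.02), Cd28 (1.77) and Cd8a (1.49). Because replicate 3 was the highest of each group, these medians are values of the earlier deposit. In PNX replicate 3 Zap70, at 6.27 TPM, was below Cd3d at 7.41, Cd8b1 at 7.02 and Cd3e at 9.47, so that its place above them after PNX is that of the earlier deposit alone. The only neighbours in the PNX order whose ranges did not overlap were Cd3g, with a lowest TPM of 6.80, and Zap70, with a highest TPM of 6.27.

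Within each deposit most T cell receptor complex genes were lower after PNX than after sham surgery, by 12.8% to 56.4% in the earlier deposit and, for all but Cd4, by 23.4% to 50.7% in the later one. The fitted log2 fold change of PNX over Sham was below 0 for 9 of 9 genes, where it was below 0 for 52% of all 16598 genes tested, and below −0.5 for 7 of 9, against 11.1% of all genes. Levels were lower after PNX in both deposits for 8 of 9 genes, against 39.3% of all genes tested, and by over 0.5 on the log2 scale in both for 7 of 9, against 7.07%. The deposits differed too. Replicate 3 stood over 1.5-fold above the earlier deposit in Sham and in PNX for 9 of 9 genes, against 9.07% of all genes, by 1.64 to 2.95 times in Sham and 1.51 to 4.85 times in PNX. Sums of other gene lists differed in this. In replicate order, pan-leukocyte markers summed to 1645, 1639 and 3671 CPM in Sham and 1673, 1720 and 3123 CPM after PNX. NK cell markers had 40.6, 40.6 and 44.0 CPM in Sham and 40.8, 37.9 and 34.2 CPM after PNX. Endothelial markers had 11179, 11279 and 9267 CPM in Sham and 9486, 9550 and 8420 CPM after PNX. For 0 of 9 genes did all 3 PNX libraries lie below all 3 Sham libraries, against 17.9% of all genes.

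**Figure D1:**
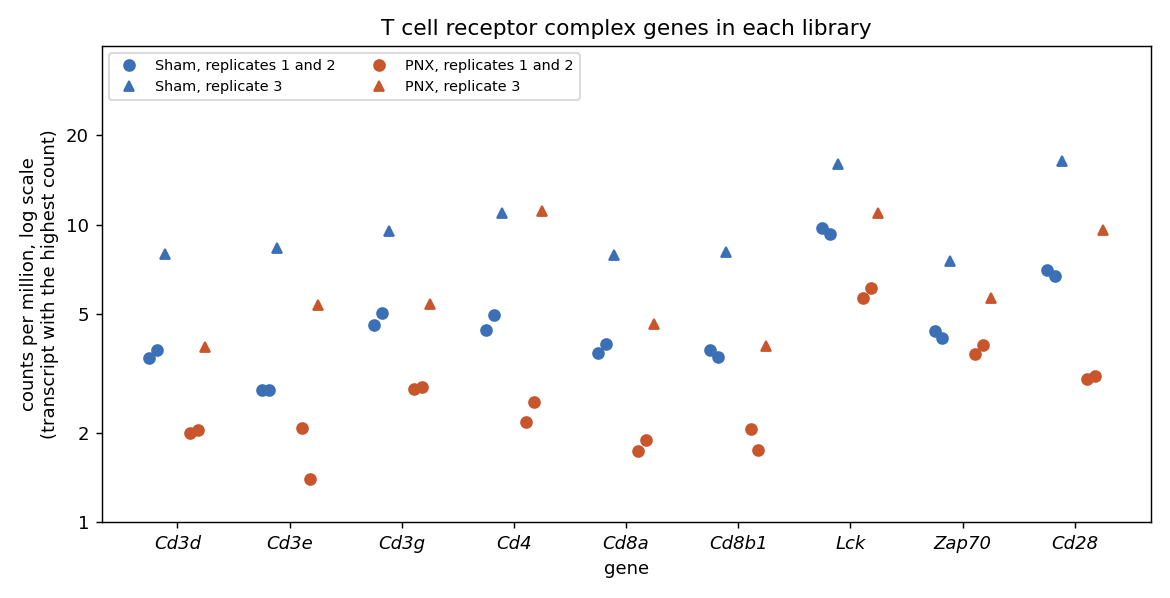
Level of each T cell receptor complex gene in each of the 6 libraries, in CPM of its most counted transcript on a log axis, with circles for replicates 1 and 2, triangles for replicate 3, blue for Sham and orange for PNX. Within circles and within triangles PNX lies below Sham for every gene except Cd4, whose triangles stand at 10.96 and 11.2 CPM, and each triangle lies above the circles of its own group.

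With n = 2 samples per group and no block, edgeR's quasi-likelihood test called 0 of 9 genes, where a call needed an adjusted p below 0.01 together with a log2 fold change beyond 1 in either direction. It called 0 of 16598 genes in all, which is 0%. None of the 9 genes had an unadjusted p under 0.05 in this fit, against 4.96% of all genes that were lower at that level, and adjusted p-values were 0.548 to 0.959. A pairing of the groups by deposit was inferred from the marks on replicates 1 and 2 in the labels. With the deposit as a replicate block the same test called 849 genes (5.12%), of which 204 were lower (1.23%), again with 0 of 9 members among them. At an adjusted p under 0.05 with any fold change the blocked fit had 7 of 9 genes lower, all but Cd4 and Zap70, against 10.1% of all genes lower and 11.5% higher. This fit has 1 residual degree of freedom. Under DESeq2's size factors in place of TMM it called 540 genes higher and 84 lower, against 645 and 204, with 0 of 9 members and the same number of members, 7, at an adjusted p under 0.05. When replicates 1 and 2 were kept apart and no block was used, edgeR called 409 genes (2.51%) and DESeq2 921, of which 239 were lower (1.47%), each with 0 of 9 members. The median log2 fold change of the 9 genes was −0.80 without and −0.79 with the block, and that of all genes tested −0.01.

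The CD3 chains were lower after PNX by a similar proportion in both deposits. CD3 delta, epsilon and gamma each carry a single activation motif in their tails and are needed for the receptor to reach the surface. Cd3d had 287, 272 and 269 counts in the Sham libraries, in the order of their replicate numbers, and 148, 134 and 116 in the PNX libraries, with replicate 3 the least deeply sequenced in each group. Scaled to library size, this was 3.56, 3.80 and 7.99 CPM in Sham and 1.99, 2.04 and 3.89 CPM after PNX. The later PNX library thus stood slightly above the earlier Sham libraries, and the groups overlapped. The PNX to Sham ratio was 0.539 in the earlier deposit (exact 95% interval 0.465 to 0.623) and 0.496 in the later one (0.396 to 0.619), where these intervals, like all those on ratios here, cover counting error only. For Sham the mean ± SD over n = 2 samples was 5.82 ± 2.97 CPM, and for PNX it was 2.97 ± 1.36 CPM. The log2 fold change was −0.98 (standard error 0.52, edgeR adjusted p = 0.548), against −0.95 under the replicate block (standard error 0.16, edgeR adjusted p = 0.00708).

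Cd3g had 4.62, 5.07 and 9.56 CPM in Sham and 2.81, 2.85 and 5.43 CPM after PNX. Its ratio was nearly the same in both deposits, 0.576 in the earlier (0.508 to 0.651) and 0.579 in the later (0.476 to 0.701). The log2 fold change was −0.80 (standard error 0.48, edgeR adjusted p = 0.598) without and −0.79 (standard error 0.15, edgeR adjusted p = 0.00942) with the replicate block. Cd3e (chr9:44998740-45009627, minus strand) had 2.78, 2.78 and 8.38 CPM in Sham and 2.07, 1.40 and 5.36 CPM after PNX. Its PNX replicates 1 and 2 were farther apart than those of any other member, at 154 and 92 counts. The ratio was 0.621 (0.529 to 0.729) in the earlier and 0.653 (0.534 to 0.796) in the later deposit. Its log2 fold change was −0.65 in both fits, with a standard error of 0.76 and an edgeR adjusted p of 0.811 without the block, and 0.16 and 0.0272 with it. An antisense gene, Gm48719, and Gm48720 overlap Cd3e in the GENCODE annotation, and since no source says that strand was used in counting, reads of Cd3e and of its antisense neighbour cannot be told apart. Cd3e also made up a changing part of the CD3 chain counts, 25.4%, 23.9% and 32.3% in Sham and 30.1%, 22.3% and 36.5% after PNX, highest in replicate 3 of each group.

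The CD8 chains were lower after PNX in both deposits, whereas Cd4 was lower in the earlier deposit only. CD8 alpha and beta form the coreceptor of cytotoxic T cells, which read MHC class I, and CD4 is that of helper T cells, which read MHC class II. Cd8a (chr6:71373427-71379173, plus strand) had 3.72, 3.96 and 7.90 CPM in Sham and 1.74, 1.89 and 4.66 CPM after PNX. The PNX to Sham ratio was 0.463 (0.398 to 0.537) in the earlier and 0.601 (0.486 to 0.741) in the later deposit. The log2 fold change was −0.86 (standard error 0.58, edgeR adjusted p = 0.647), against −0.93 under the replicate block (standard error 0.14, edgeR adjusted p = 0.00434). On the most counted Cd8a transcript alone the blocked value was −0.93 (standard error 0.16, edgeR adjusted p = 0.0113). Cd8b1, which lies close by (chr6:71322788-71337494, plus strand), had 3.78, 3.59 and 8.11 CPM in Sham and 2.06, 1.75 and 3.92 CPM after PNX. Its ratio was 0.510 (0.439 to 0.590) and 0.493 (0.394 to 0.615), and its log2 fold change −1.02 (standard error 0.54, edgeR adjusted p = 0.549), against −0.99 under the replicate block (standard error 0.16, edgeR adjusted p = 0.00570). The CD8 genes were counted nearly alike, with 1.02, 0.905 and 1.03 Cd8b1 counts per Cd8a count in Sham and 1.19, 0.927 and 0.842 after PNX. These ratios overlapped between groups.

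Cd4 (chr6:124864692-124888221, minus strand) had 358, 358 and 369 counts in Sham and 161, 166 and 333 after PNX. In CPM this was 4.44, 4.996 and 10.96 in Sham and 2.17, 2.53 and 11.2 after PNX, so that the later PNX library had the highest Cd4 level of all 6 while the earlier PNX libraries had the lowest. The ratio was 0.488 (0.427 to 0.557) in the earlier and 1.04 (0.893 to 1.21) in the later deposit, and these intervals do not overlap. The later deposit was 2.28 times as high as the earlier in Sham (2.01 to 2.59) and 4.85 times in PNX (4.15 to 5.67). For Sham the mean ± SD over n = 2 samples was 7.81 ± 4.31 CPM, and for PNX it was 6.80 ± 6.33 CPM. Its log2 fold change did not pass the test, at −0.22 (standard error 0.83, edgeR adjusted p = 0.959). The blocked value of −0.50 did not pass either (standard error 0.25, edgeR adjusted p = 0.193). Per Cd8a count there were 1.19, 1.26 and 1.39 Cd4 counts in Sham and 1.25, 1.34 and 2.40 after PNX. PNX replicate 3 alone stood apart on this measure, and the other 5 libraries lay between 1.19 and 1.39.

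**Figure D2:**
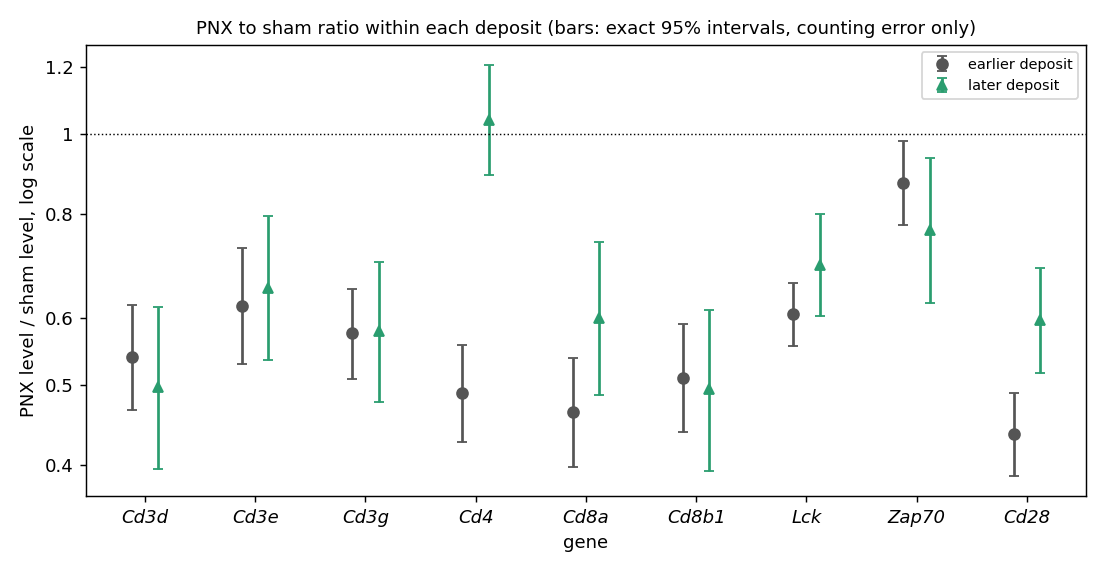
PNX level divided by Sham level of each gene within the earlier deposit (grey circles, replicates 1 and 2 summed) and the later deposit (green triangles, replicate 3), on a log axis, with exact 95% intervals that cover counting error only. Each interval lies below 1 except that of Cd4 in the later deposit, where its ratio is 1.04. The intervals of the deposits do not overlap for Cd4 and Cd28. The share of all genes with such intervals was not computed, so none of this is set against it.

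Of the proximal kinases, Lck was lower after PNX in both deposits, and Zap70 had the smallest difference of the 9 genes in the earlier deposit. Lck (chr4:129548344-129573641, minus strand), the most counted member, had 9.73, 9.32 and 16.0 CPM in Sham and 5.67, 6.16 and 10.9 CPM after PNX. Its ratio was 0.607 (0.557 to 0.662) in the earlier and 0.696 (0.605 to 0.8002) in the later deposit, and its log2 fold change −0.60 (standard error 0.40, edgeR adjusted p = 0.643) without and −0.62 (standard error 0.09, edgeR adjusted p = 0.00409) with the replicate block. The 3 Lck transcripts had counts of 784, 784 and 784 in Sham replicate 1 and between 417 and 421 in PNX replicate 1. Reads shared by transcripts were evidently counted on each of them, so these counts do not divide Lck between the start sites shown above. The tests, on counts summed over transcripts, hold such reads more than once. With the most counted transcript alone the blocked fit gave Lck −0.62 (standard error 0.11, edgeR adjusted p = 0.0107). Zap70 (chr1:36761798-36782818, plus strand) had 4.39, 4.17 and 7.54 CPM in Sham and 3.69, 3.95 and 5.67 CPM after PNX. Its ratio was 0.872 (0.776 to 0.979) in the earlier and 0.766 (0.627 to 0.934) in the later deposit. The log2 fold change was −0.30 (standard error 0.34, edgeR adjusted p = 0.803), against −0.28 under the replicate block (standard error 0.10, edgeR adjusted p = 0.0798), neither of which passed. On the most counted Zap70 transcript alone the blocked value was −0.28 (standard error 0.15, edgeR adjusted p = 0.221). The antisense pseudogene Gm18828 overlaps Zap70, with the same uncertainty as for Cd3e, and the microRNA gene Mir8119 lies inside Lck.

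Cd28 (chr1:60716800-60773359, plus strand) had the lowest ratio of the 9 genes in the earlier deposit. It had 567, 482 and 553 counts in Sham and 225, 203 and 287 after PNX, that is 7.04, 6.73 and 16.4 CPM in Sham and 3.03, 3.09 and 9.62 CPM after PNX. The groups overlapped, since the later PNX library stood above the earlier Sham libraries. The ratio was 0.436 (0.389 to 0.488) in the earlier and 0.597 (0.516 to 0.690) in the later deposit, with intervals that do not overlap. The log2 fold change was −0.88 (standard error 0.69, edgeR adjusted p = 0.698) without and −0.98 (standard error 0.15, edgeR adjusted p = 0.00454) with the replicate block.

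The members did not all keep one proportion to the CD3 chains of the same library. Zap70 had 0.401, 0.359 and 0.291 counts per CD3 chain count in Sham and 0.536, 0.627 and 0.386 after PNX, so it was higher after PNX within each deposit. Per count of Lck, Zap70 stood at 0.452, 0.448 and 0.471 in Sham and 0.651, 0.641 and 0.518 after PNX. All 3 PNX libraries lay above all 3 Sham libraries on this measure, which was not tested. Cd28 had 0.642, 0.578 and 0.633 counts per CD3 chain count in Sham and 0.440, 0.492 and 0.655 after PNX, lower after PNX in the earlier deposit and about level in the later one. Cd8a had 0.340, 0.341 and 0.305 in Sham and 0.252, 0.300 and 0.317 after PNX. Lck overlapped between groups, at 0.888, 0.801 and 0.617 in Sham and 0.824, 0.978 and 0.744 after PNX. Cd4 had 0.405, 0.429 and 0.423 in Sham and 0.315, 0.402 and 0.760 after PNX.

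**Figure D3:**
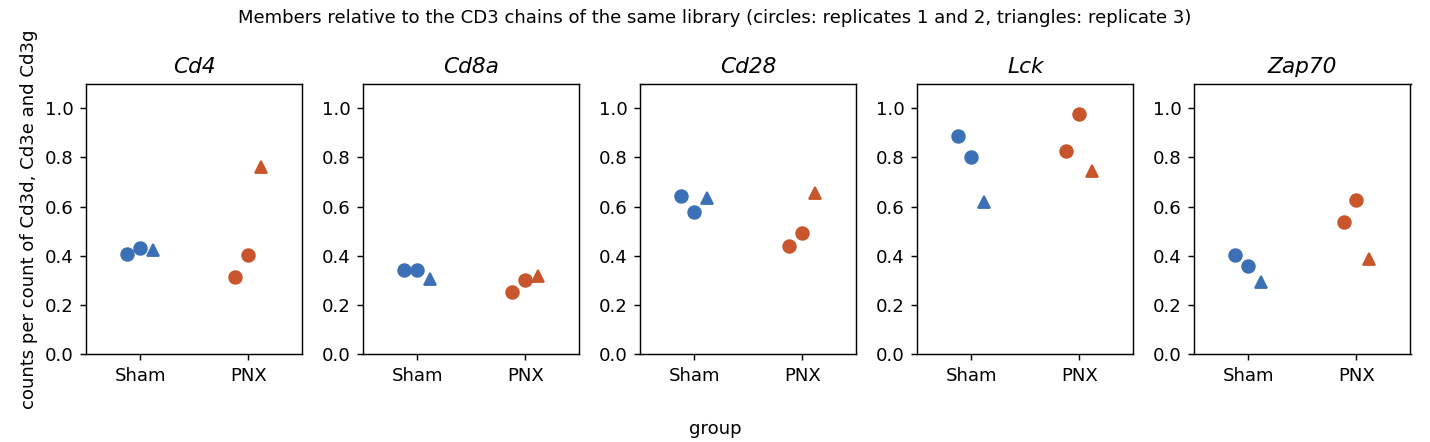
Counts of Cd4, Cd8a, Cd28, Lck and Zap70 per count of Cd3d, Cd3e and Cd3g together in the same library, on linear axes from 0, with circles for replicates 1 and 2, triangles for replicate 3, blue for Sham and orange for PNX. Cd4 in PNX replicate 3 stands alone at 0.760, and Zap70 is higher in PNX than in Sham for circles and for the triangle, while Cd8a and Lck overlap.

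The genes whose pattern over the 6 libraries was nearest to the mean of the CD3 chains were taken by the root mean square distance of centred log2 CPM among 14290 genes. Outside the 9 members, the nearest was Il17rb, a chain of the interleukin 25 receptor, at a distance of 0.06 on the log2 scale. It had 1.55, 1.56 and 3.39 CPM in Sham and 0.982, 0.884 and 1.98 CPM after PNX. The axonemal dynein genes Dnah7b (0.09) and Dnah1 (0.10) followed, then Ms4a2 (0.12), which encodes a chain of the IgE receptor of mast cells and basophils, Gfi1 (0.13), Il2rb (0.13), Ryr1 (0.14), Cd5 (0.14), Grap2 (0.14) and Cpne5 (0.15). Il2rb encodes a receptor chain for interleukin 2 and interleukin 15, Cd5 a T cell surface receptor and Grap2 an adaptor of the T cell receptor pathway. Of the members that are not CD3 chains, Cd8b1 ranked 5, Cd8a 19, Cd28 69, Lck 78, Zap70 411 and Cd4 433 in the same order. The CD3 chains, which make up the mean, were at 6 for Cd3d, 7 for Cd3g and 93 for Cd3e. Cd3e was thus farther from the mean than Cd8b1, Cd8a, Cd28 and Lck.

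Other genes of T cell receptor signalling, a list that holds the receptor's zeta chain gene Cd247, surface regulators and kinases as well as adaptors and downstream factors, mostly had fitted values below 0, with a list median nearer to 0 than that of the 9 members. CPM of genes other than the 9 members are from counts summed over the transcripts of a gene, and their levels are compared only between libraries. Of 35 genes of T cell receptor signalling, all tested, 30 had a fitted log2 fold change below 0 and 5 above, with a median of −0.26, and 0 were called without the block. In both deposits 23 of the 35 were lower and 5 higher, against 39.3% of all genes tested lower in both. With the replicate block 11 were lower and 0 higher at an adjusted p under 0.05, against 10.1% and 11.5% of all genes. Cd6, a surface receptor that T cells share with some B cells, was the 1 called (edgeR log2 fold change −1.04, adjusted p = 0.00180). Of all genes, 1.23% were called lower. Some genes of the list are also used by other cells. Ptprc, the CD45 phosphatase of all leukocytes, had 471, 469 and 987 CPM in Sham and 466, 475 and 783 CPM after PNX (edgeR adjusted p = 0.344 with the block). Fyn, a Src family kinase, had a log2 fold change of 0.09 in either fit (edgeR adjusted p = 0.893, and 0.483 with the block), and Nfatc1 one of −0.02 (0.991 and 0.885). The T cell receptor alpha, beta, gamma and delta constant chain genes were not found among the gene symbols of the count files, so they could not be analysed.

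Of 20 genes of the CD28 family, its ligands and other costimulatory pairs, 19 were tested, 13 of them lower and 6 higher, with a median of −0.22. With the replicate block 5 were lower and 1 higher at an adjusted p under 0.05, against 10.1% and 11.5% of all genes tested. Btla, an inhibitory receptor of B and T cells, was among those lower, with 30.3, 29.0 and 46.6 CPM in Sham and 20.7, 19.9 and 27.8 CPM after PNX (log2 fold change −0.64, edgeR adjusted p = 0.00310). All 3 of its PNX libraries lay below all 3 Sham libraries, as for 17.9% of all genes tested. Cd96 was also lower with the block (log2 fold change −0.88, edgeR adjusted p = 0.0145), as was Cd274, which encodes the ligand PD-L1 (−0.33, adjusted p = 0.0280). Tnfrsf9, the activation receptor 4-1BB, was the 1 that was higher, with 1.34, 1.42 and 2.94 CPM in Sham and 3.07, 3.02 and 5.26 CPM after PNX (log2 fold change 1.00, edgeR adjusted p = 0.010), and its groups did not overlap. The share of all genes with every PNX library above every Sham library was not computed. Icosl, a ligand on antigen-presenting cells, had a log2 fold change of −0.20 (edgeR adjusted p = 0.211).

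Among 16 T lineage transcription factors 14 were lower and 2 higher, with a median of −0.22, and with the replicate block 6 were lower and 0 higher at an adjusted p under 0.05. Of all genes tested, 10.1% were lower at that level with the block. Lef1, a partner of TCF1 in naive T cells, had 19.2, 18.2 and 32.7 CPM in Sham and 8.59, 9.89 and 18.2 CPM after PNX (log2 fold change −0.94 with the block, edgeR adjusted p = 0.00111). Satb1, a chromatin organiser of T cells, had a log2 fold change of −0.83 (edgeR adjusted p = 9.19e-04). Ikzf1, which most lymphocytes use, had one of −0.33 (0.0291). Ets1 and Id3, which ECs also express, did not pass, at −0.21 (edgeR adjusted p = 0.189) and −0.06 (0.673). Among 21 genes of T cell state and effector function 18 were lower and 3 higher, with a median of −0.43 without the block, and 6 were lower and 0 higher at an adjusted p under 0.05 with it. Ccr7, the receptor that guides naive and central memory T cells to lymph nodes, had 32.7, 32.0 and 60.9 CPM in Sham and 13.0, 12.7 and 31.5 CPM after PNX, and was the 1 gene of this list called with the block (log2 fold change −1.15, edgeR adjusted p = 7.98e-04). The share called lower among all genes was 1.23%. Il7r, the survival receptor of resting T cells, had a log2 fold change of −0.70 (0.00449), and S1pr1 and Klf2, also abundant in ECs, had −0.58 (0.0124) and −0.49 (0.0245). Cd44, an adhesion receptor of many cell types, had 0.11 (0.573).

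**Figure D4:**
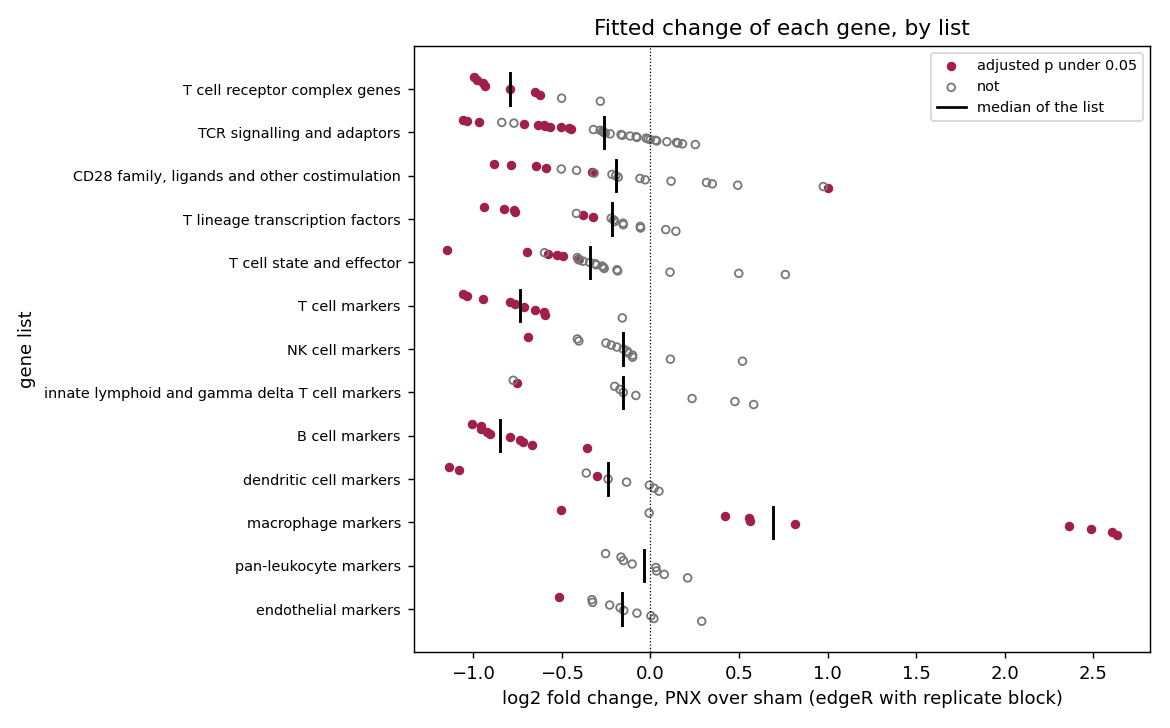
Fitted log2 fold change of PNX over Sham with the replicate block (edgeR) for every tested gene of the T cell receptor complex set and of 12 other gene lists, with filled points at an adjusted p under 0.05, open points otherwise and a bar at the median of the list. The T cell receptor complex genes, the T cell markers and the B cell markers lie to the left with medians of −0.79, −0.74 and −0.85, the macrophage markers lie mostly to the right with a median of 0.69, and the pan-leukocyte and endothelial markers are near 0 with medians of −0.04 and −0.16.

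Markers of other blood cells moved beside the T cell receptor complex genes in different ways, and their part in the result was not tested. Of 12 T cell markers 10 were tested, including the 3 CD3 chains (Trac and Trbc2 were not found among the gene symbols). All 10 were lower in both deposits, with 9 lower at an adjusted p under 0.05 in the blocked fit, against 39.3% and 10.1% of all genes tested. Their summed level was 103 to 177 CPM in Sham and 67.7 to 121 CPM after PNX. The exception was Cd2, an adhesion receptor shared with NK cells, at −0.16 (edgeR adjusted p = 0.246 with the block), whereas Cd247, the zeta chain of the receptor, had −0.59 (0.00305) and Bcl11b, a factor that holds T cell identity, −0.76 (0.00766). Of 10 B cell markers 10 were lower, with 10 at an adjusted p under 0.05 with the block and a summed level of 286 to 386 CPM in Sham against 187 to 249.6 CPM after PNX.

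NK cell markers had a median nearer to 0. Of 13, 11 had a fitted value below 0 and 1, Klrd1, was lower at an adjusted p under 0.05 with the block (log2 fold change −0.69, edgeR adjusted p = 0.0404), and the median was −0.14. Of all genes tested, 10.1% were lower and 11.5% higher at that level with the block, and 5.12% were called. The counts of 1 lower gene in the NK cell, innate lymphoid and endothelial lists were near the share lower. Their summed level was 40.6 to 44.0 CPM in Sham and 34.2 to 40.8 CPM after PNX, overlapping between groups. Of 10 innate lymphoid and gamma delta T cell markers 9 were tested, 6 lower and 3 higher, with 1, Il17rb, lower at an adjusted p under 0.05 with the block (edgeR adjusted p = 0.0455). Macrophage markers went the other way, with 8 of 10 higher and 1 lower at an adjusted p under 0.05 with the block, and 4 called higher, which were C1qa, C1qb, C1qc and Marco. Their summed level was 1.33 times as high after PNX as in Sham in the earlier deposit and 0.993 times in the later one, and Lyz2, the lysozyme gene with the highest CPM of the list, had a log2 fold change of −0.01 (edgeR adjusted p = 0.980 with the block). C1qb had 11.2, 11.3 and 21.6 CPM in Sham and 89.1, 88.6 and 99.8 CPM after PNX. The 8 pan-leukocyte markers had 0 genes at an adjusted p under 0.05 in the blocked fit and a median of −0.08 without it. Their summed level was 1.01 times as high after PNX as in Sham in the earlier deposit and 0.867 times in the later one, where the summed T cell receptor complex genes, with all their transcripts, were at 0.613 and 0.685. The 10 endothelial markers summed to 9267 to 11279 CPM in Sham and 8420 to 9550 CPM after PNX, with 1 of them, Tek, lower at an adjusted p under 0.05 with the block (log2 fold change −0.51, edgeR adjusted p = 0.0192).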

How the data were processed

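Per the labels and the methods, the authors made stranded mRNA libraries of CD31+ mouse lung cells, aligned the reads to mm10 and counted them on RefSeq transcripts. STAR is named in the submitters' processing notes, and how reads were counted is not given in the sources used here. In unit terms, the deposited files hold, per library, a whole-number count of each of 33068 transcripts, with TPM and FPKM that the authors computed from it. The FPKM values were not used. Counts were summed per symbol (24063 symbols) for tests. Reads shared by transcripts of a gene had been counted on each, so the printed counts, CPM and TPM of the 9 genes are those of the transcript with the highest total (other genes and list sums: all transcripts), a choice made after the values were seen in place of TPM summed per symbol.

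The test was edgeR's quasi-likelihood test (version 4.0.16, R 4.3.3) after TMM scaling and filterByExpr, adjusted by Benjamini-Hochberg over all 16598 genes, with DESeq2 1.42.0 and limma 3.58.1 as alternatives. A call needs an adjusted p below 0.01 together with a log2 fold change beyond 1 in either direction. The standard error is the fold change divided by the square root of F. Replicates 1 and 2 were summed, giving totals of 153481488 and 33374216 counts in Sham and 140145729 and 29526989 in PNX. The pairing by deposit is inferred from the marks of re-use in the labels. Over 14290 genes the difference between deposits correlated between the groups (Pearson's r = 0.722, Spearman's rho = 0.738). Intervals are Clopper-Pearson at 95% and cover counting error only. The self-check of the fit was run on simulated data.

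The members and gene lists were chosen with earlier results of these data known. Of each list, the text names genes among the 3 highest in mean CPM and the 2 with the largest absolute log2 fold change at a mean count of at least 50. The 10 genes nearest to the CD3 chains and genes overlapping a member are also named. Some genes that this rule gives are not reported here. C1qa and Marco were named after their values were seen. Nearness used log2 CPM with a prior count of 2. Positions are from GENCODE on GRCm38, windows from RefSeq on GRCm38.p6.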

Additional observations from a re-analysis of the deposited data

How the results depend on the processing

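With 4 samples and no replicate block edgeR called 0 genes. The number was also 0 with limma-voom, with other scaling (upper quartile, DESeq2's size factors, totals alone), with other filters (none, or a minimum of 10 counts per library), with the most counted transcript of each gene, and 0 to 2 when a library was left out (2 without PNX replicate 3). It depended on the block and on the tool. It was 849 under the replicate block, 409 for 6 separate libraries, 1104 for both together, 572 for DESeq2, 921 for DESeq2 on 6 libraries, 810 for DESeq2 and the block, 1203 for replicates 1 and 2 alone and 3584 at an adjusted p under 0.05 with the block. Under the block it was also 624 with DESeq2's size factors, 629 with totals alone, 727 with the most counted transcript, and 671, 668, 485 and 863 without Sham replicate 1, Sham replicate 2, PNX replicate 1 and PNX replicate 2. The last 5 of these were chosen after seeing the data.

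Of the 9 T cell receptor complex genes, 0 were called in the fits of all libraries without block. There was 1 with 6 libraries and the block (Cd28) and 3 with replicates 1 and 2 alone (Cd4, Cd8a and Cd28). Of all genes, 297 of 16263 and 257 of 16322 were called lower in these fits. Both fits count replicates 1 and 2 as separate samples, though they differed by little more than sampling noise. There were 7 at an adjusted p under 0.05 with the block, and 0 to 1 when a library other than replicate 3 was left out (Cd8b1, with the block, without Sham replicate 2). Over 27 refitted alternatives the log2 fold change was below 0 for 6 genes in 27 and for Cd3e, Cd4 and Zap70 in 26, but its size rested on replicate 3 in the fits without the block, where a sample of 1 deposit is then set against samples of both. From without PNX replicate 3 to without Sham replicate 3, it ran from −1.65 to 0.32 for Cd3e, −1.73 to 0.49 for Cd4, −0.63 to 0.13 for Zap70, −1.92 to −0.15 for Cd28, −1.69 to −0.27 for Cd8a, −1.61 to −0.37 for Cd8b1, −1.52 to −0.34 for Cd3d, −1.34 to −0.25 for Cd3g and −1.12 to −0.19 for Lck. The blocked fit without a replicate 3 leaves no residual degrees of freedom and was not run. Levels rest on 92 to 784 counts per gene and library, so counting error alone leaves intervals on a later-deposit ratio such as 0.396 to 0.619 for Cd3d.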

Other observations

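Some other genes of the marker lists stood apart in the later deposit. Cd163l1, a scavenger receptor known from gamma delta T cells, had 0.645, 0.712 and 3.18 CPM in Sham and 0.511, 0.549 and 7.28 CPM after PNX, so that, like Cd4, it was highest in PNX replicate 3 and lowest in the earlier PNX libraries. Its log2 fold change did not pass the test without (edgeR adjusted p = 0.833) or with the replicate block (0.393). Zbtb16, the factor of innate-like lymphocytes, went the other way, with 21.8, 21.9 and 13.4 CPM in Sham and 24.8, 25.4 and 9.93 CPM after PNX, with no difference past the test (0.998 and 0.731).

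Of 9 dendritic cell markers 8 had a fitted value below 0 and 1 above, with a median of −0.25 without the block. With the replicate block 3 were lower and 0 higher at an adjusted p under 0.05, against 10.1% of all genes lower. Ccr9 and Siglech were the 2 of 9 called, against 1.23% of all genes called lower. Ccr9 had 4.98, 5.02 and 7.63 CPM in Sham and 2.02, 2.45 and 3.59 CPM after PNX (log2 fold change −1.13, edgeR adjusted p = 0.00315). Its PNX libraries all lay below its Sham libraries, as for 17.9% of all genes tested. Siglech had 3.83, 4.23 and 8.58 CPM in Sham and 1.86, 1.51 and 4.63 CPM after PNX (−1.08, adjusted p = 0.00580). Without the block neither passed (adjusted p = 0.322 and 0.613). Clec9a, the marker of cross-presenting dendritic cells, had a log2 fold change of −0.30 (edgeR adjusted p = 0.0411 with the block). Itgax and Zbtb46 of the same list had 0.02 (0.892) and −0.24 (0.235), and the cytotoxic genes Prf1 and Gzma had −0.41 (0.194) and −0.19 (0.389).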
